A study of Mus musculus with 16 samples.

Results

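The core autophagy machinery was followed here as 36 listed genes out of 17484 tested on the arrays. They were the genes of initiation (5), nucleation (6), phosphatidylinositol 3-phosphate (PI3P) binding and lipid transfer (9), conjugation (11) and fusion (4), with the transcription factor gene Tfeb. The ATG8 proteins and the cargo receptors were left out of the list. Each gene was represented by its brightest probe, and all 36 had a probe. The cells were Ba/F3, a mouse pro-B cell line that needs interleukin-3, and all of them were grown with interleukin-3 and G418. In clonal lines they carried FOXO3(A3)-ER or FOXO4(A3)-ER, a forkhead factor fused to an oestrogen receptor domain, which 4-hydroxytamoxifen (4-OHT) switches on. RNA of FOXO3 or FOXO4 cells given 4-OHT for 2 h or 8 h was hybridised in 1 dye against the same line's time 0 pool in the other, on 4 arrays per line and time. The samples held no cells without a fusion protein and no cells cultured for the same hours without 4-OHT. The sources used here do not give the number of clones behind each construct. Activation of the fusion protein therefore cannot be told apart from 4-OHT itself or from hours in culture, and the construct cannot be told apart from the line that carries it.

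In autophagy a membrane cup grows around cytoplasm, closes into an autophagosome and fuses with the lysosome. The ULK kinase complex starts the cup, the class III phosphatidylinositol 3-kinase complex marks it with PI3P, and PI3P-binding propeller proteins and lipid transfer proteins enlarge it. A pair of ubiquitin-like conjugation systems attaches ATG8 proteins to its membrane, and tethers and SNARE proteins then join it to the lysosome. FOXO factors are known to raise autophagy genes in muscle, and the series title places these arrays in a study of autophagy and glutamine metabolism.

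Values below are log2 ratios of treated over time 0 RNA with the SE of 1 limma fit over all 16 arrays (n = 4 arrays per group). A gene was called when its Benjamini-Hochberg adjusted p over 17484 genes was under 0.05. Where 4 values are listed for a group they are the ratios of arrays 1, 2, 3 and 4. Arrays 1 and 3 of each group carried the treated RNA in Cy3 and arrays 2 and 4 carried it in Cy5, so a pattern of high and low values in turn follows the dye. The fit removed 1 dye difference for each gene, taken as the same in every group. A dye difference that varied between groups stayed in the spread. The labels call the replicates of a time point independent.

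Array medians of the spot signal ran from 94.8 to 169 for Cy5 and from 98.2 to 161 for Cy3, with local backgrounds of 38 to 42 and 40 to 45. Every one of the 36 probes lay above its local background on 4 of 4 arrays of every group. A probe is called dim where its signal did not exceed 95% of the external control spots, taken without the 1 control type that gave a signal. At time 0, 10 of the 36 were above that level on all 16 arrays, and 5 (Ulk2, Atg3, Atg4c, Epg5 and Tfeb) were dim on all 16. Of 13 tested B lineage markers only Cd79b and Ptprc were above the control level at time 0 on at least 12 arrays, and 11 were dim on all 16, among them Cd79a, Pax5 and Ebf1. Of 12 mast cell, basophil and myeloid markers Cpa3, Gata2 and Csf1r were above it, and 8 were dim on all 16, among them Kit, Mpo and Lyz2. Of 8 tested T, NK and erythroid markers Hba-a1 was above it and 3 were dim on all 16. Of 2 tested interleukin-3 receptor genes Csf2rb2 was above it and Csf2rb was dim on all 16. At 8 h in FOXO3 cells 1 of 13 B lineage markers rose (Ptprc, 1.25), 1 of 12 mast cell and myeloid markers fell (Gata2, -0.41), and of 8 T, NK and erythroid markers Hba-a1 (1.76) and Cd3e (0.41) rose and Klf1 (-0.81) fell. The mean ratio of the B lineage list was 0.09 to 0.12 over the FOXO3 arrays at 8 h and -0.0008 to 0.10 over the FOXO4 arrays, and that of the T, NK and erythroid list was 0.07 to 0.24 and -0.24 to 0.09. That of the mast cell, basophil and myeloid list was -0.12 to 0.02 and -0.10 to -0.04. These means include the high ratios of single genes such as Ptprc and Hba-a1. In FOXO3 cells at 8 h the medians over genes were 0.03 for the B lineage list and 5.87e-05 for the T, NK and erythroid list. The part of any such cells in the results below was not tested, and more cells of a type cannot be told apart from more RNA per cell in these bulk samples.

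At 8 h most of the called genes of the machinery rose, in both lines. In FOXO3 cells 23 of 36 genes rose and 1 fell, where 30.5% of all genes were called in either direction (15.4% higher and 15.1% lower). In FOXO4 cells 16 rose and 1 fell, where 18.5% of all genes were called (9.71% higher and 8.75% lower). The median ratio of the 36 was 0.21 in FOXO3 and 0.08 in FOXO4 cells, and that of all genes was -0.0023 and -0.011. All 5 initiation genes rose in both lines. Of 6 nucleation genes 5 rose in FOXO3 and 2 in FOXO4 cells, and Uvrag fell in both. Of the 9 PI3P-binding and lipid transfer genes 7 and 6 rose, of 11 conjugation genes 4 and 2, and of 4 fusion genes 2 and 1. The rises were modest, since only Rb1cc1 and Wdr45 reached 1 on the log2 scale, in FOXO3 cells. Of the 23 genes that rose in FOXO3 cells 19 were higher on 4 of 4 arrays, and of the 16 in FOXO4 cells 12 were.

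At 2 h few members were called. FOXO3 cells had 3 genes higher and 0 lower at 2 h, where 7.8% of all genes were called (3.47% higher and 4.34% lower). FOXO4 cells had 1 gene higher and 1 lower, where 8.8% were called (3.39% higher and 5.41% lower). Both shares are near those of all genes. From 2 h to 8 h 17 rose and 2 fell in FOXO3 cells, where 21.8% of all genes were called (11.8% higher and 9.99% lower). In FOXO4 cells the same comparison had 8 higher and 0 lower, where 10.7% were (6.74% higher and 3.95% lower). The time 0 pool cancels in this comparison.

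**Figure D1:**
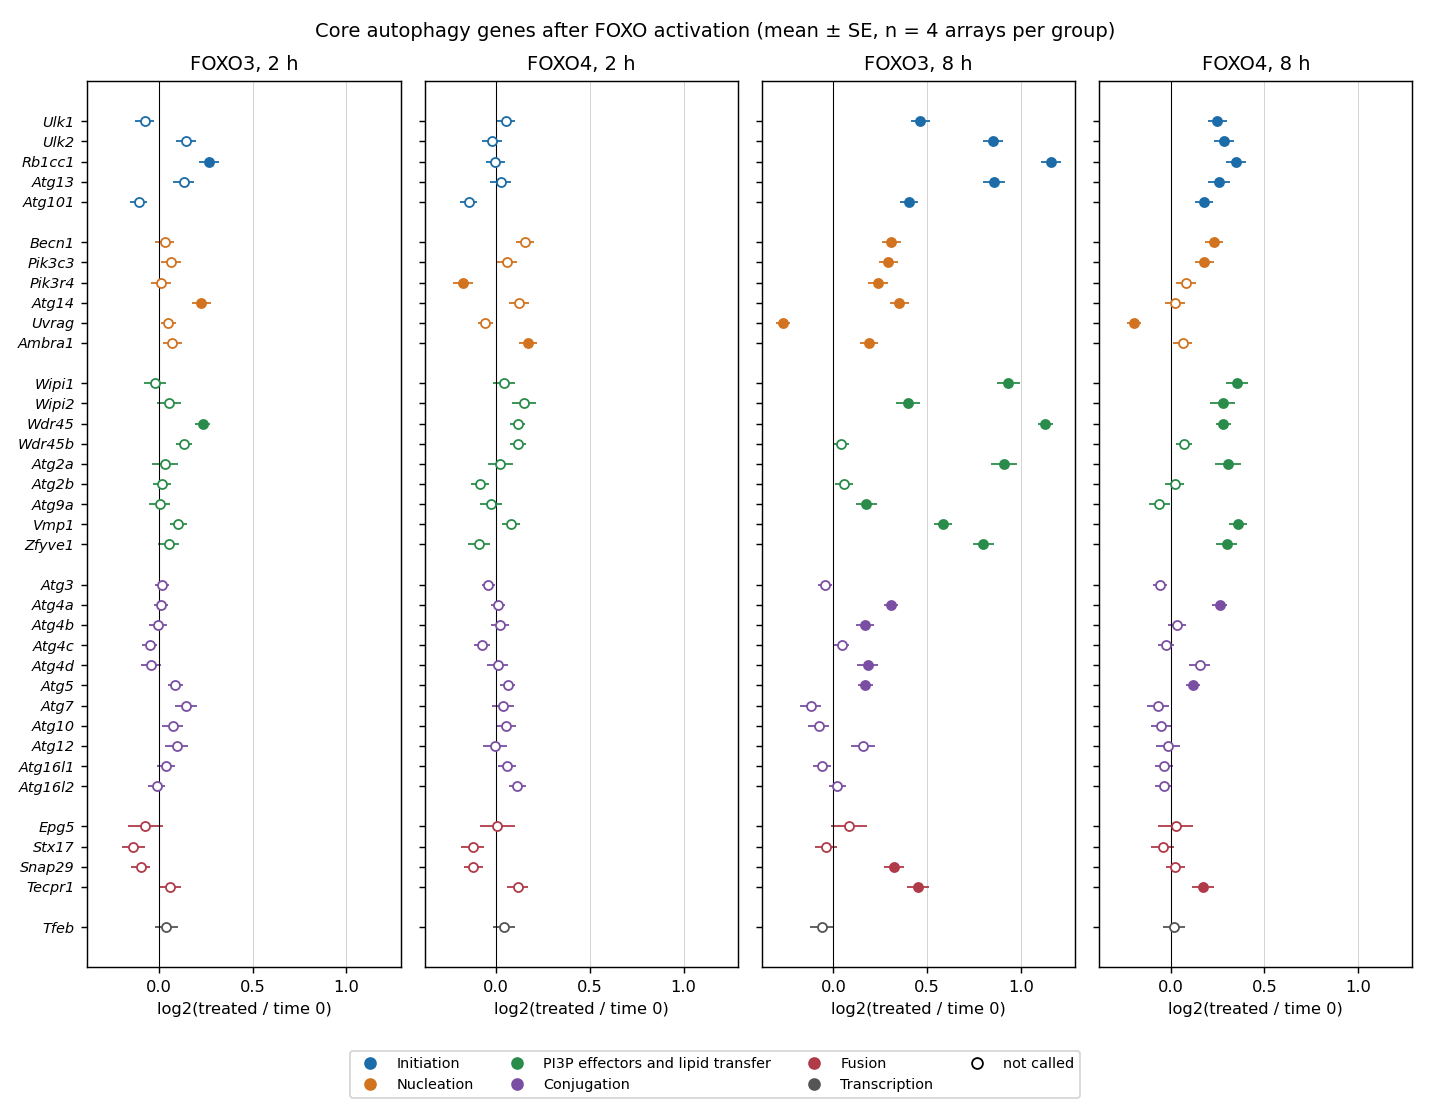
The log2 ratio of treated over time 0 RNA is on the horizontal axis for each of the 36 genes, 1 panel per line and time. Points are group means with the SE of the fit (n = 4 arrays), colours mark the steps, and open points were not called. At 2 h nearly all points lie close to 0, and at 8 h in FOXO3 cells Rb1cc1 and Wdr45 lie above 1 while the conjugation genes stay between -0.12 and 0.31.

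All 5 initiation genes were called higher at 8 h in both lines, but the FOXO4 calls depended on the processing. In FOXO4 cells none was called with arrays centred on the external control spots that gave a signal (adjusted p 0.0501 to 0.285). Ulk1, Ulk2, Atg13 and Atg101 were also not called there without the dye term. Rb1cc1, which encodes FIP200, the large scaffold of the ULK complex, had the highest ratio of the 36. In FOXO3 cells at 8 h its arrays gave 1.22, 1.09, 1.31 and 1.03, and in FOXO4 cells 0.40, 0.25, 0.49 and 0.25. The 2 groups did not overlap, and the means were 1.16 ± 0.053 (a fold change of 2.24, adjusted p = 2.58e-12) and 0.35 ± 0.053 (1.27-fold, adjusted p = 6.43e-05). It was also 1 of the 3 genes called in FOXO3 cells at 2 h, where the arrays gave 0.39, -0.01, 0.50 and 0.19 (0.27 ± 0.053, adjusted p = 0.00237). In FOXO4 cells at 2 h they gave 0.22, -0.36, 0.31 and -0.19, which average to 0. The 2 h rise in FOXO3 cells was not called with median centring (adjusted p = 0.0514), control-spot centring (0.143) or no dye term (0.322).

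Atg13, the subunit that links the kinase to its scaffold, was bright on all arrays. It gave 1.10, 0.72, 0.88 and 0.73 in FOXO3 cells at 8 h and 0.41, 0.26, 0.33 and 0.03 in FOXO4 cells, with no overlap (0.86 ± 0.057 and 0.26 ± 0.057). At 2 h it was not called, with 0.18, -0.20, 0.33 and 0.22 in FOXO3 cells and 0.04, -0.09, 0.19 and -0.04 in FOXO4 cells. Atg101, which binds and steadies ATG13, rose less. Its arrays gave 0.28, 0.55, 0.45 and 0.33 in FOXO3 cells at 8 h and 0.05, 0.33, -0.02 and 0.35 in FOXO4 cells, which overlap (0.40 ± 0.047 and 0.18 ± 0.047). At 2 h 3 of 4 arrays of each line were below 0 (-0.11 and -0.15, neither called). The FOXO4 rise of Atg101 at 8 h was not called without FOXO4 array 2 (adjusted p = 0.0696) or array 4 (adjusted p = 0.0874) at 8 h.

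The kinase genes Ulk1 and Ulk2 rose in both lines, but their ratios differed widely between the dyes and in opposite senses. Ulk2 gave 1.21, 0.49, 1.48 and 0.21 in FOXO3 cells at 8 h and 0.81, -0.22, 0.64 and -0.09 in FOXO4 cells. Within each dye every FOXO3 array lay above every FOXO4 array. Its mean was 0.85 ± 0.053 in FOXO3 and 0.29 ± 0.053 in FOXO4 cells, with a dye term of -0.47. At 2 h its arrays gave 0.57, -0.27, 0.61 and -0.33 in FOXO3 cells and 0.57, -0.58, 0.39 and -0.47 in FOXO4 cells, and it was not called. Ulk1 is shown array by array because its dye term, 0.53, was the largest of the 36, a choice made after its values were seen. It gave 0.04, 0.83, -0.04 and 1.02 in FOXO3 cells at 8 h, so the Cy3 arrays sat at 0 and the Cy5 arrays near 1. At 2 h the same dyes gave -0.63, 0.47, -0.58 and 0.44, lower on each dye. The rise from 2 h to 8 h in FOXO3 cells was 0.54 ± 0.071 (adjusted p = 9.94e-06). A dye difference shared by the groups cancels in this rise, as it does in each group mean, which holds both dyes equally. The call of this rise still rested on modelling the dye, since its adjusted p was 0.734 in a fit that ignored it. Against time 0 Ulk1 rose by 0.46 ± 0.05 in FOXO3 and 0.25 ± 0.05 in FOXO4 cells, and neither was called without the dye term (adjusted p = 0.415 and 1). Both kinase genes were dim at time 0 on at least 15 of 16 arrays.

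**Figure D2:**
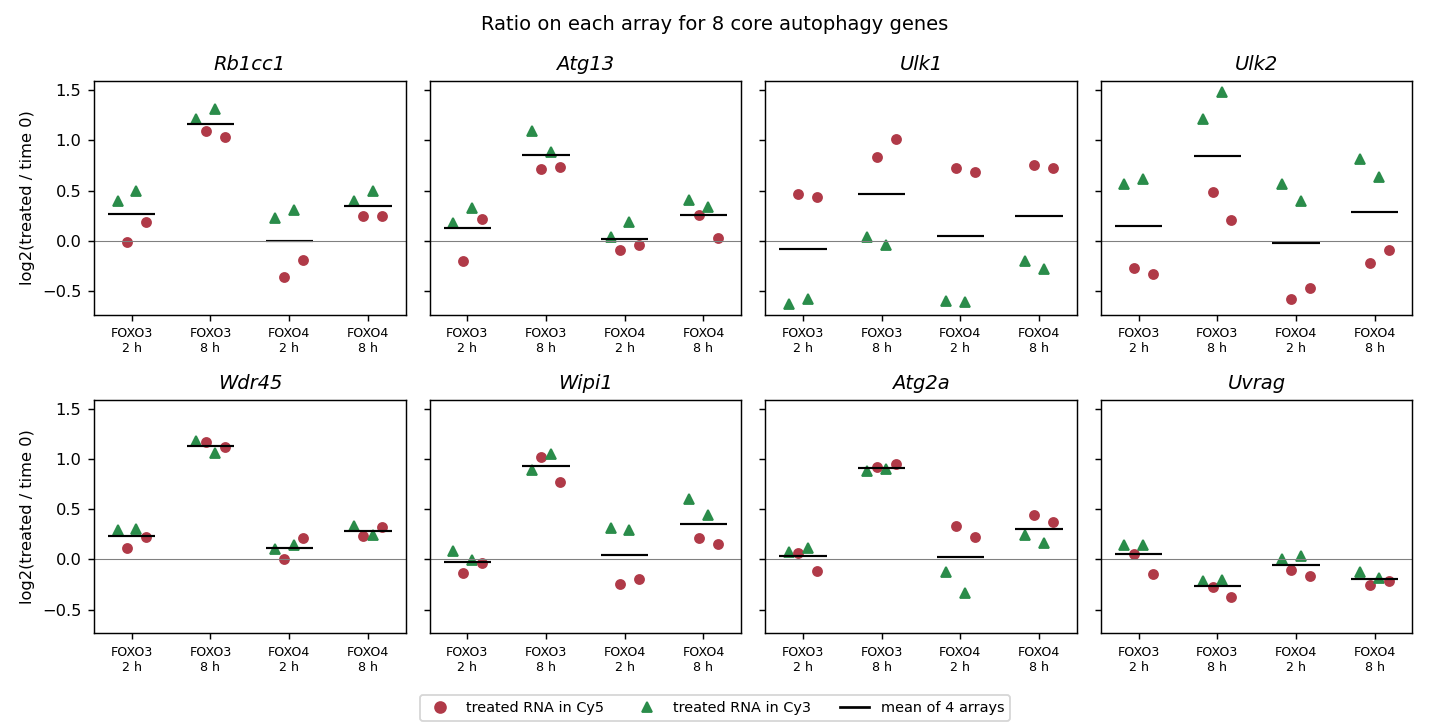
Each point is the log2 ratio on 1 array, with 1 panel per gene and the 4 groups along the horizontal axis. Red circles had the treated RNA in Cy5, green triangles had it in Cy3, and bars are the means of 4 arrays. Rb1cc1, Wdr45, Wipi1 and Atg2a separate FOXO3 at 8 h from the other groups, while Ulk1 and Ulk2 split by dye within every group.

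The genes of the phosphatidylinositol 3-kinase complex moved by small amounts and not in 1 direction. Becn1, the scaffold Beclin 1, rose by 0.31 ± 0.049 in FOXO3 and 0.23 ± 0.049 in FOXO4 cells at 8 h, and Pik3c3, the kinase VPS34, by 0.29 ± 0.053 and 0.18 ± 0.053. The FOXO4 call of Pik3c3 was lost without FOXO4 array 1, 2 or 4 at 8 h (adjusted p 0.0555 to 0.157). Both genes were bright on all arrays. Pik3r4, the pseudokinase subunit VPS15, rose by 0.24 ± 0.053 in FOXO3 cells at 8 h. Its dye term was 0.32, and a fit that left the dye out did not call it (adjusted p = 0.603). In FOXO4 cells at 2 h it fell by 0.18 ± 0.053 (adjusted p = 0.0427), from arrays at -0.62, 0.08, -0.46 and 0.29. Those arrays had both signs, and the call was lost on leaving out any of 8 single arrays of either line: FOXO4 arrays 1, 2 and 3 at 2 h, FOXO4 arrays 1 and 3 at 8 h, FOXO3 array 1 at 2 h and FOXO3 arrays 3 and 4 at 8 h (adjusted p 0.0514 to 0.265).

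Atg14 and Uvrag encode alternative partners of Beclin 1, of which ATG14 directs the kinase to autophagosome formation and UVRAG to endosomes, and they went opposite ways. Atg14 gave 0.47, 0.24, 0.41 and 0.28 in FOXO3 cells at 8 h and 0.06, -0.14, 0.26 and -0.09 in FOXO4 cells. The groups overlapped at 1 array each, and the means were 0.35 ± 0.052 and 0.02 ± 0.052, the latter not called. It had already risen in FOXO3 cells at 2 h, with arrays at 0.25, -0.04, 0.47 and 0.23 (0.23 ± 0.052, adjusted p = 0.00792). That call was lost without FOXO3 array 3 or 4 at 2 h (adjusted p = 0.0874 and 0.0847). It was also lost without the dye term (adjusted p = 0.229) and with control-spot centring (adjusted p = 0.158). At 2 h in FOXO4 cells Atg14 was at 0.15, -0.04, 0.21 and 0.17 and was not called.

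Uvrag was the only one of the 36 called lower at 8 h in either line with loess and the brightest probe, though Atg7 and Atg2b were also called lower in FOXO3 cells under some other settings. Its arrays gave -0.21, -0.28, -0.21 and -0.38 in FOXO3 cells and -0.12, -0.25, -0.19 and -0.22 in FOXO4 cells, all below 0 and overlapping between the lines. The means were -0.27 ± 0.038 (adjusted p = 1.14e-05) and -0.19 ± 0.038 (adjusted p = 0.000799). At 2 h the arrays lay on both sides of 0, from -0.14 to 0.15 in FOXO3 and from -0.17 to 0.04 in FOXO4 cells, and Uvrag was bright on all arrays. The FOXO4 fall was not called with median centring (adjusted p = 0.0708). Ambra1, which encodes a regulator of Beclin 1, rose by 0.19 ± 0.049 in FOXO3 cells at 8 h, though not in a fit that left the dye out (adjusted p = 0.103). In FOXO4 cells it was called only at 2 h, from arrays at 0.29, 0.19, 0.24 and -0.05 (0.17 ± 0.049, adjusted p = 0.0365). The call was lost without FOXO4 array 1, 2 or 3 at 2 h (adjusted p 0.0774 to 0.258), and at 8 h its FOXO4 ratio was 0.06 ± 0.049.

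Of the 4 PI3P-binding propeller genes 3 rose at 8 h in both lines. Wdr45, which encodes WIPI4, gave 1.18, 1.16, 1.06 and 1.12 in FOXO3 cells at 8 h and 0.33, 0.23, 0.24 and 0.32 in FOXO4 cells. The groups did not overlap and the dyes gave like values (1.13 ± 0.041, a fold change of 2.19, and 0.28 ± 0.041, a fold change of 1.22). At 2 h it had risen in FOXO3 cells on 4 of 4 arrays, with 0.30, 0.11, 0.30 and 0.22 (0.23 ± 0.041, adjusted p = 0.00097). That call was lost with control-spot centring (0.23, adjusted p = 0.174). In FOXO4 cells the 2 h arrays gave 0.10, 0.01, 0.14 and 0.21 (not called). Wdr45b, which encodes WIPI3, was bright on all arrays and was not called in any comparison, with 0.04 ± 0.043 in FOXO3 cells at 8 h (95% interval -0.05 to 0.13). The difference between Wdr45 and Wdr45b was not tested.

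Wipi1, which encodes a propeller protein of early autophagic membranes, gave 0.89, 1.02, 1.05 and 0.77 in FOXO3 cells at 8 h and 0.60, 0.22, 0.45 and 0.15 in FOXO4 cells. The groups did not overlap (0.93 ± 0.061 and 0.35 ± 0.061). It was not called at 2 h, with -0.14 to 0.09 in FOXO3 cells and -0.25 to 0.31 in FOXO4 cells. The Wipi1 probe was dim at time 0 on 15 of 16 arrays and with treated RNA on 7. Wipi2, which brings in ATG16L1, rose by 0.40 ± 0.065 in FOXO3 and 0.28 ± 0.065 in FOXO4 cells at 8 h.

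The promoters of Wdr45 and Wipi1 are shown because these were the highest of the 36 in FOXO3 cells among genes with a RefSeq promoter in the table used here. RefSeq promoters on GRCm38.p6 matched 29 of the 36 genes, with 36 promoters, and none matched Rb1cc1. The 250 bases before each start were searched on both strands for the FOXO core GTAAACA and the insulin response element core CAAAACA. Neither stood in any of the 36 promoters, where 3.17% and 5.56% of 32851 promoters held them. Sequence outside the 250 bases was not searched. The median GC content was 60.0% for the 36 promoters and 52.4% for all. The windows below run 5′ to 3′ from 250 bases before the start to the base before it, at chrX:7722677-7722926 on the plus strand and chr11:109611390-109611639 on the minus strand. They are in lower case throughout because they hold no motif that was searched.
Wdr45: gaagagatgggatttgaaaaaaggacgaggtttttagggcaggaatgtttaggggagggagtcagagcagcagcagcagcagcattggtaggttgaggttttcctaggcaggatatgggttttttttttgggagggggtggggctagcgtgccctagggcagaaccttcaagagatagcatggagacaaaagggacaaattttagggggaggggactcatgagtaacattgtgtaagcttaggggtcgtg
Wipi1: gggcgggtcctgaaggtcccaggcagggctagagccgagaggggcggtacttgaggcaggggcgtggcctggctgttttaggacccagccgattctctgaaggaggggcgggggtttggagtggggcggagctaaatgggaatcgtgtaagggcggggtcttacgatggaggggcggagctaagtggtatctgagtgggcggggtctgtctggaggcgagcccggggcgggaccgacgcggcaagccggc

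Of the 2 lipid transfer genes of the ATG2 family 1 was called. Atg2a, which encodes a bridge-like lipid transfer protein, gave 0.88, 0.92, 0.90 and 0.95 in FOXO3 cells at 8 h and 0.24, 0.45, 0.16 and 0.37 in FOXO4 cells. The groups did not overlap (0.91 ± 0.068 and 0.30 ± 0.068). The 2 h arrays lay on both sides of 0 in both lines, from -0.11 to 0.12 in FOXO3 and from -0.34 to 0.33 in FOXO4 cells. Atg2a was dim at time 0 on 12 of 16 arrays. Its relative Atg2b was not called in any comparison, with 0.06 ± 0.048 in FOXO3 cells at 8 h (95% interval -0.04 to 0.16). Atg9a, the scramblase of the vesicles that seed the cup, rose by 0.18 ± 0.057 in FOXO3 cells at 8 h (adjusted p = 0.0231). That call was lost without FOXO3 array 3 or 4 at 8 h (adjusted p = 0.13 and 0.178) and without the dye term (adjusted p = 0.13).

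Vmp1, a scramblase of the endoplasmic reticulum, had the highest ratio of the 36 in FOXO4 cells. It gave 0.46, 0.27, 0.38 and 0.33 there at 8 h, against 0.51, 0.65, 0.46 and 0.71 in FOXO3 cells (0.36 ± 0.047 and 0.59 ± 0.047). The highest FOXO4 array equalled the lowest FOXO3 array to 2 decimals, and at 2 h Vmp1 was not called in either line (-0.07 to 0.23 over both). Zfyve1, which encodes DFCP1, a PI3P-binding protein of the site where the cup forms, gave 0.87, 0.65, 0.96 and 0.73 in FOXO3 cells at 8 h. In FOXO4 cells it gave 0.65, 0.08, 0.48 and -0.01, higher with the treated RNA in Cy3, and its highest array equalled the lowest FOXO3 array to 2 decimals (0.80 ± 0.057 and 0.30 ± 0.057). At 2 h its arrays lay between -0.03 and 0.15 in FOXO3 and between -0.31 and 0.18 in FOXO4 cells, and it was not called. Zfyve1 was dim at time 0 on 12 of 16 arrays.

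Of the steps with more than 1 gene, conjugation had the lowest share of genes that rose at 8 h in both lines (36.4% in FOXO3 and 18.2% in FOXO4 cells). These shares were above those of all genes, of which 15.4% and 9.71% rose. Of the 8618 genes above the control spots on at least 4 arrays, 2341 rose in FOXO3 and 1675 in FOXO4 cells, which are larger shares. The share of conjugation genes was not computed among those brighter genes, so no excess is read from it. In FOXO3 cells at 8 h the protease genes Atg4a (0.31 ± 0.039), Atg4b (0.17 ± 0.048) and Atg4d (0.18 ± 0.056), which encode enzymes that process ATG8 proteins, and Atg5 (0.17 ± 0.039), the partner to which ATG12 is joined, rose. Atg4a was close in every array of a line, from 0.27 to 0.36 in FOXO3 and from 0.22 to 0.29 in FOXO4 cells, where its mean was 0.26 ± 0.039. Atg4b gave -0.18, 0.54, -0.13 and 0.44 in FOXO3 cells at 8 h, so its sign followed the dye, and its call was lost without FOXO3 array 2 at 8 h (adjusted p = 0.0665). The call of Atg4d was lost without FOXO3 array 1, 2 or 3 at 8 h (adjusted p 0.0541 to 0.0701), and those of Atg4b and Atg4d also without the dye term (adjusted p = 0.824 and 0.0774).

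Atg5 gave 0.04, 0.20, 0.17 and 0.27 in FOXO3 cells at 8 h and 0.10, 0.11, 0.14 and 0.13 in FOXO4 cells, above 0 on all 8 arrays and overlapping. The FOXO4 value, 0.12 ± 0.039 (adjusted p = 0.0418), was the lowest rise called in that group, and it was not called without FOXO4 array 1, 2, 3 or 4 at 8 h or FOXO4 array 1 at 2 h (adjusted p 0.0505 to 0.228). The ubiquitin-like modifier gene Atg12 was not called in any comparison, and its ratio in FOXO3 cells at 8 h was 0.16 ± 0.064. Atg7, the activating enzyme shared by both conjugation systems, was not called against time 0 (-0.12, adjusted p = 0.133, in FOXO3 cells at 8 h). It was called lower there with median centring (-0.17, adjusted p = 0.0449), with control-spot centring (-0.20, adjusted p = 0.0355) and with the replicate number as a block (-0.12, adjusted p = 0.0251). From 2 h to 8 h in FOXO3 cells it fell by 0.26 ± 0.081 (adjusted p = 0.0229), which was lost without FOXO3 array 1 or 3 at 2 h or array 4 at 8 h (adjusted p 0.0779 to 0.1). Its FOXO3 arrays went from 0.35, -0.03, 0.40 and -0.15 at 2 h to 0.05, -0.21, 0.05 and -0.37 at 8 h. The conjugating enzyme genes Atg3 and Atg10, the protease gene Atg4c, Atg16l1, which sets where ATG8 proteins are attached, and its relative Atg16l2 were not called in any comparison. Over the 7 conjugation genes not called in FOXO3 cells at 8 h the ratios ran from -0.12 to 0.16, and their 95% intervals together ran from -0.24 to 0.29. Atg3 and Atg4c were dim on all 16 arrays in both channels, so a change there could have gone unseen. At time 0 Atg4b was dim on 15 of 16 arrays and Atg16l1 on 14.

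TFEB and its relatives bind the CLEAR element, whose core is the E-box CACGTG. The E-box stood in the 250 bases before the start of Atg3, Atg5 and Atg7, or 8.33% of the 36 promoters, and in 6.02% of all promoters. The stretches are printed with the E-box in capitals because all 3 genes with the motif belong to the conjugation step, and they come from the plus strand at chr16:45158723-45158775, chr10:44268313-44268338 and chr6:114670952-114670981 of GRCm38.p6. A match is a description of these letters and not a bound site.
Atg3: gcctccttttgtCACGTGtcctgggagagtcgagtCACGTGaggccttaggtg
Atg5: cggagcgcttgcCACGTGgtcttggt
Atg7: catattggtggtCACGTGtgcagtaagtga

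Of the fusion genes Snap29, a SNARE gene, gave 0.15, 0.44, 0.26 and 0.43 in FOXO3 cells at 8 h and 0.05, -0.03, 0.00 and 0.08 in FOXO4 cells. The groups did not overlap (0.32 ± 0.051, adjusted p = 4.35e-05, and 0.02 ± 0.051, not called). At 2 h its arrays gave -0.35 to 0.04 in FOXO3 and -0.23 to -0.03 in FOXO4 cells, not called. Tecpr1, which encodes an ATG5-binding protein of autophagosomes and lysosomes, gave 0.16, 0.57, 0.43 and 0.65 in FOXO3 cells at 8 h and 0.07, 0.34, 0.04 and 0.24 in FOXO4 cells. Those groups overlapped (0.45 ± 0.057 and 0.17 ± 0.057). The FOXO4 call (adjusted p = 0.0416) was lost on leaving out FOXO4 array 1, 2, 3 or 4 or FOXO3 array 2 at 8 h (adjusted p 0.0509 to 0.156). The SNARE gene Stx17, which had a dye term of 0.45, the tether gene Epg5 and Tfeb were not called in any comparison, and all 3 were dim on at least 15 of 16 arrays in each channel. Their ratios in FOXO3 cells at 8 h were -0.04 ± 0.061, 0.08 ± 0.095 and -0.06 ± 0.059.

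The lines were then set against each other. This asks whether the ratios to time 0 differed between the FOXO3 and the FOXO4 line. At 8 h 12 of 36 genes were higher in FOXO3 than in FOXO4 cells and 0 were lower, where 10.6% of all genes were called (5.37% higher and 5.28% lower). The largest differences were those of Wdr45 (0.85 ± 0.059), Rb1cc1 (0.81 ± 0.074), Atg2a (0.61 ± 0.097), Atg13 (0.60 ± 0.081), Wipi1 (0.58 ± 0.086), Ulk2 (0.56 ± 0.076) and Zfyve1 (0.50 ± 0.08). The other five were Atg14 (0.33 ± 0.073), Snap29 (0.30 ± 0.072), Tecpr1 (0.28 ± 0.081), Atg101 (0.23 ± 0.066) and Vmp1 (0.22 ± 0.067). Differences of Atg101, Tecpr1 and Vmp1 were lost on leaving out single arrays. These were FOXO3 arrays 1, 2 and 3 and FOXO4 arrays 1 and 3 for Atg101 (adjusted p 0.0604 to 0.133), FOXO3 arrays 2, 3 and 4 and each FOXO4 array for Tecpr1 (0.0592 to 0.114), and FOXO3 arrays 1, 2 and 4 and FOXO4 arrays 2 and 4 for Vmp1 (0.0604 to 0.144), all at 8 h. None of the 11 conjugation genes differed, and their intervals of the difference together ran from -0.22 to 0.36. This comparison holds the errors of both time 0 pools.

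All 16 genes that rose in FOXO4 cells at 8 h were among the 23 that rose in FOXO3 cells, or 100% of the first list and 69.6% of the second. Each of the 16 had the larger ratio in FOXO3 cells. The FOXO4 log2 ratio was 0.249 to 0.853 times the FOXO3 one, with a median of 0.411. Over the 36 genes the ratios of the lines at 8 h had a Pearson r of 0.872 and a Spearman rho of 0.894 (n = 36 genes, which share the probes and the dye effects of the arrays). Of all genes 15.4% were called higher in FOXO3 and 9.71% in FOXO4 cells at 8 h. The overlap, the relative size and the correlation were not computed over all genes. A shared and smaller FOXO4 response can therefore not be called particular to these 36. Of the 7 genes called higher in FOXO3 and not in FOXO4 cells, only Atg14 and Snap29 differed between the lines by the test, and Pik3r4, Ambra1, Atg9a, Atg4b and Atg4d did not pass it. The difference of Atg14 was not called with median centring (adjusted p = 0.0906), control-spot centring (0.139) or no dye term (0.175), and that of Snap29 not with control-spot centring (0.0538) or no dye term (0.122). That of Atg9a was called with a filter at the control spots (0.24, adjusted p = 0.041), without FOXO3 array 1 at 8 h (adjusted p = 0.0471) and without FOXO4 array 4 at 2 h (adjusted p = 0.0334).

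**Figure D3:**
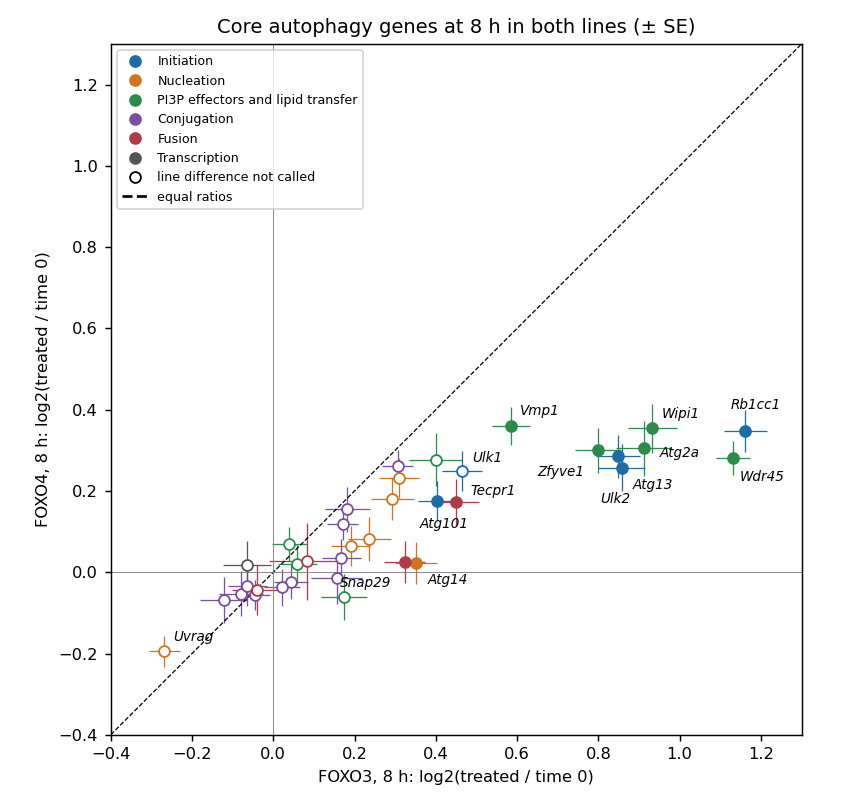
Each point is 1 of the 36 genes, with its log2 ratio at 8 h in FOXO3 cells on the horizontal axis and in FOXO4 cells on the vertical axis, both against time 0 with the SE of the fit. Filled points differed between the lines at an adjusted p under 0.05, colours mark the steps, and the dashed line marks equal ratios. The 12 filled genes lie below the dashed line, with Rb1cc1 and Wdr45 furthest to the right.

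At 2 h 0 of 36 genes differed between the lines, where 0.0343% of all genes were called (0.0172% higher and 0.0172% lower). By the limma fit the differences ran from -0.13 to 0.27. The change from 2 h to 8 h, in which both pools cancel, was larger in FOXO3 than in FOXO4 cells for 6 of 36 genes and smaller for 0, where 3.31% of all genes were called (1.88% higher and 1.43% lower). They were Wdr45 (0.73 ± 0.083), Wipi1 (0.64 ± 0.121), Atg2a (0.59 ± 0.137), Rb1cc1 (0.54 ± 0.105), Atg13 (0.49 ± 0.115) and Ulk2 (0.40 ± 0.107). The call of Ulk2 (adjusted p = 0.0496) was lost on leaving out any of 12 of the 16 arrays, all but FOXO3 arrays 1 and 4 at 8 h, FOXO4 array 2 at 2 h and FOXO4 array 4 at 8 h (adjusted p 0.053 to 0.122). That of Atg13 was lost without FOXO3 array 1 or FOXO4 array 3 or 4 at 8 h (adjusted p 0.0517 to 0.0562), and that of Atg2a without FOXO4 array 3 at 8 h (adjusted p = 0.0508). Without FOXO4 array 3 at 8 h 3 genes were called, Wdr45, Wipi1 and Rb1cc1.

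Of the 36 genes 14 had more than 1 probe, and for some of them the choice of probe decided the result. In FOXO3 cells at 8 h the second probes of Ulk2 (0.76) and Zfyve1 (0.79) gave ratios close to the first, and so did 1 of the 2 other probes of Pik3c3 (0.23), while the other, dim on all arrays, gave -0.004. The other tested probe of Wipi2, dim on all arrays, gave 0.06 against 0.40 for the brightest. Those of Tecpr1, both dim on all arrays, gave 0.09 and 0.23 against 0.45. With the mean of all probes Pik3c3 and Tecpr1 were not called in FOXO4 cells at 8 h (adjusted p = 0.0788 and 0.128). A second probe of Wipi1 gave 1.37, above the 0.93 of the brightest, and the remaining probe, dim on all arrays, gave -0.03. The 5 other probes of Atg2a were dim on all arrays and gave 0.02 to 0.13, against 0.91 for the brightest. With the mean of all probes its FOXO3 ratio at 8 h was 0.20 (adjusted p = 0.000321), the line difference of Atg2a at 8 h was 0.16 (adjusted p = 0.0675), its FOXO4 ratio at 8 h was 0.04 (adjusted p = 0.622) and its difference in the change from 2 h to 8 h was 0.17 (adjusted p = 0.313). For Atg2b, 2 of the 4 other probes were called lower in FOXO3 cells at 8 h, at -0.27 and -0.26, and both were above the control level on at least 8 arrays. The mean of the 5 Atg2b probes was -0.10 (adjusted p = 0.0189). The other probes of Atg4a, Atg9a and Ambra1 lay between -0.09 and 0.01. Both of those of Atg4a and 2 of the 3 of Atg9a were dim on all arrays. With the mean of all probes none of these 3 genes passed in FOXO3 cells at 8 h (adjusted p = 0.0722, 0.916 and 0.0612). The transcripts that each probe reads were not looked up here.

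**Figure D4:**
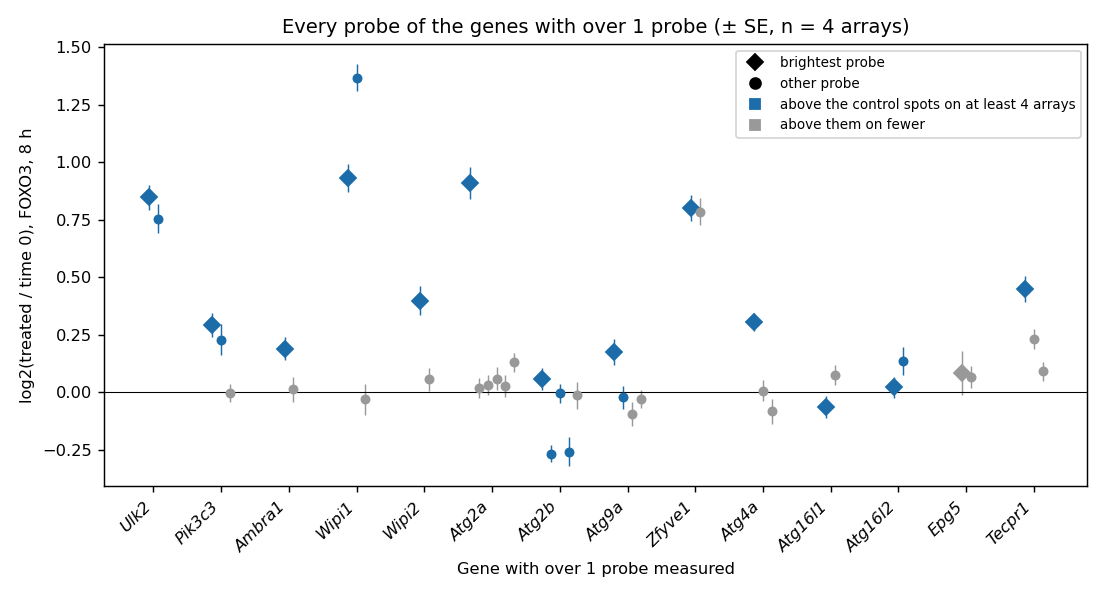
The log2 ratio in FOXO3 cells at 8 h is on the vertical axis for every measured probe of the genes with more than 1, with the SE of the fit (n = 4 arrays). Diamonds mark the brightest probe, which stands for the gene, and blue points were above the control spots on at least 4 of 16 arrays. The brightest Atg2a probe stands at 0.91 and its 5 others lie near 0, while 2 probes of Atg2b lie below -0.25.

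Other genes of the pathway were followed in a list of 32, of which 31 were tested. At 8 h 15 of them rose and 3 fell in FOXO3 cells, with a median of 0.13, where 15.4% of all genes rose and 15.1% fell. In FOXO4 cells 11 rose and 2 fell, with a median of 0.04, where 9.71% of all genes rose and 8.75% fell. The highest was Trp53inp1, a stress gene whose protein binds ATG8 proteins, at 2.82 ± 0.094 in FOXO3 and 1.68 ± 0.094 in FOXO4 cells, and it was dim at time 0 on 16 of 16 arrays. Sh3glb1, which encodes a UVRAG-binding membrane protein, rose by 0.91 ± 0.052 and 0.71 ± 0.052, and Pik3c2a, a class II phosphatidylinositol 3-kinase gene, by 0.84 ± 0.062 and 0.55 ± 0.062. Tfe3, a relative of Tfeb that was above the control level at time 0 on all arrays, rose by 0.36 ± 0.048 and 0.17 ± 0.048. Genes that fell in both lines were Bcl2, whose protein binds Beclin 1 (-1.22 ± 0.052 and -1.002 ± 0.052), and Vamp8, a SNARE gene of the fusion step (-0.28 ± 0.046 and -0.62 ± 0.046). The scramblase gene Tmem41b, with a ratio of -0.15 ± 0.043, fell in FOXO3 cells. The other genes that rose in both lines were Vps11, Vps33a, C9orf72, Tbk1, Vps13a and Vps13c, at 0.15 to 0.54. The 16 ATG8 and receptor genes, which stand outside the list of 36, had 13 higher and 1 lower in FOXO3 and 11 higher and 1 lower in FOXO4 cells at 8 h, with medians of 0.67 and 0.30, beside 30.5% and 18.5% of all genes called in either direction.

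These results depend in part on how the arrays were centred. For control-spot centring each array was centred on the 144 external control spots of the 1 type that gave a signal. With that centring the median of all genes shifted to -0.12 in FOXO4 cells at 8 h. There 3 of the 36 genes rose and 1 fell, in place of 16 and 1. The split of all called genes was 758 higher and 1699 lower under that centring, in place of 1697 and 1530. Relative to the median of all genes, the median of the 36 was 0.11 in place of 0.09. Under that centring 16 of the 36 rose and 2 fell in FOXO3 cells at 8 h, with 1670 genes higher and 2486 lower over the array in place of 2688 and 2641, and their median lay 0.22 above that of all genes, as it did with loess. At 2 h in FOXO4 cells the split of all genes was 129 higher and 1024 lower in place of 592 and 946. The genes still called higher in FOXO4 cells at 8 h under control-spot centring were Wipi1, Wipi2 and Vmp1, and Uvrag was still called lower. Of the 24 genes called in FOXO3 cells at 8 h, 15 were called under every alternative setting and without each single array, among them Ulk2, Rb1cc1, Atg13, Becn1, Wipi1, Wdr45 and Vmp1. In FOXO4 cells at 8 h only 2 of 17 were, Wipi1 and Vmp1. The difference between the lines at 8 h was called under every one of these settings for 4 of 12 genes, Rb1cc1, Atg13, Wipi1 and Wdr45. None of the 6 genes whose change from 2 h to 8 h differed between the lines was called in all of them.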

How the data were processed

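Two-colour arrays measured RNA of 4-OHT-treated FOXO3(A3)-ER or FOXO4(A3)-ER Ba/F3 cells against the line's time 0 pool, with 4 arrays per group, grouped by the labels. Per the file headers, the deposited scanner files hold unsubtracted spot intensity beside its local background. Normalized intensities and log2 values, equal to log2(treated / time 0) of those intensities, were deposited as well. The authors' normalization method is not stated in the labels or headers. The scanner intensities were used. In limma 3.58.1 (R 4.3.3) background was corrected with normexp (offset 50) and ratios were normalized by loess within each array, with control spots at weight 0. Of 31769 gene probes, 942 were left out because they did not exceed background by 2 SDs on at least 4 arrays. The platform annotation named 26000 probes, with symbols updated through RefSeq (GRCm38.p6), and 7 of the 36 genes were found through an older symbol. The brightest probe stood for a gene, so the probes of 14 genes competed. The fit had 4 group means and a dye term for each gene, with 17484 genes adjusted together. Ratios against time 0 leave out the pool's own spread. Precision is limited by the number of arrays. The members, lists and named genes were chosen with earlier results of these data known: all 36 members are named, with array values for the 3 highest and 3 lowest called genes at 8 h in each line, for genes called at 2 h and for genes that differed between lines. Other pathway genes are named only if called. Alternatives changed the centring, background correction, filter, probe choice, dye term, replicate block, fitted arrays and source of values. Promoters were read in Python 3.11.15.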

Additional observations from a re-analysis of the deposited data

Results flagged for a closer look

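On 5 of 144 combinations of a gene and a group 1 array stood far from the other 3. The rule flags 1 in 20 by chance where the 4 values share 1 spread. That rate need not hold here, because the ratios of some genes split by dye, so no conclusion is drawn from the count. The 5 were Atg4c on FOXO3 array 4 at 2 h (-0.15), Atg2b on FOXO3 array 4 at 8 h (-0.15), Epg5 on FOXO3 array 3 at 8 h (-0.22), Atg10 on FOXO4 array 4 at 2 h (0.36) and Becn1 on FOXO4 array 3 at 8 h (0.35). Of these only Becn1 was called in its group, and its call held without that array.

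The ratio of 8 h to time 0 differed between FOXO3 and FOXO4 cells, by the test of the difference itself, for Wdr45 (0.85), Rb1cc1 (0.81), Atg2a (0.61), Atg13 (0.60), Wipi1 (0.58), Ulk2 (0.56), Zfyve1 (0.50), Atg14 (0.33), Snap29 (0.30), Tecpr1 (0.28), Atg101 (0.23) and Vmp1 (0.22), each higher in FOXO3 cells on the log2 scale. The change from 2 h to 8 h also differed for Wdr45 (0.73), Wipi1 (0.64), Atg2a (0.59), Rb1cc1 (0.54), Atg13 (0.49) and Ulk2 (0.40).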

How the results depend on the processing

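In the comparison of FOXO3 at 8 h with time 0, every alternative gave a count within 1.5 times the 24 genes called, and leaving out single arrays gave 22 to 25. Leaving out single arrays gave 2 to 4 called genes for FOXO3 at 2 h, 0 to 3 for FOXO4 at 2 h, 13 to 18 for FOXO4 at 8 h, 16 to 20 and 6 to 10 for 8 h against 2 h in FOXO3 and FOXO4 cells, 0 between lines at 2 h and 10 to 13 at 8 h, and 3 to 6 for the difference in change from 2 h to 8 h. For FOXO4 at 2 h 0 were called without FOXO4 array 1, 2 or 3 at 2 h, and 1 without FOXO3 array 1 at 2 h or FOXO4 array 1 or 3 at 8 h. Centring on the external control spots that gave a signal called 0 for FOXO3 at 2 h, 1 for FOXO4 at 2 h and 4 for FOXO4 at 8 h. It called 1 for FOXO4 8 h against 2 h and 0 for the difference in change. The split of all genes under it was 240 higher and 328 lower for FOXO3 at 2 h, in place of 606 and 758. For the difference in change it was 20 and 17, in place of 328 and 250. Without the dye term 1 was called for FOXO3 at 2 h, 0 for FOXO4 at 2 h and 8 for FOXO4 at 8 h. That setting called 12 for FOXO3 8 h against 2 h and 1 for FOXO4 8 h against 2 h. It called 5 between lines at 8 h and 1 for the difference in change, since the dye difference then counted as spread. Calls over all genes fell too, to 914 higher and 694 lower from 1697 and 1530 for FOXO4 at 8 h. For FOXO3 at 2 h they fell to 225 and 241 from 606 and 758. For FOXO4 at 2 h they fell to 177 and 303 from 592 and 946. Between lines at 8 h they fell to 310 and 247 from 939 and 923. Median centring gave 0 for FOXO4 at 2 h and 2 for the difference in change. With it the split of all genes for FOXO4 at 2 h was 322 higher and 687 lower, in place of 592 and 946. That for the difference in change was 86 and 92, in place of 328 and 250. For FOXO4 at 2 h, 1 was called without background correction, 4 of 31 with a filter at the control spots, which left out Atg3, Atg4c, Epg5, Stx17 and Tfeb, and 4 with the line fitted alone. The split of all genes for FOXO4 at 8 h was 1663 higher and 968 lower with median centring. Between lines at 8 h it was 545 and 932 with median centring and 469 and 275 with control spots, in place of 939 and 923. For FOXO4 8 h against 2 h it was 1001 and 257, and 546 and 172, in place of 1179 and 690. Atg2b in FOXO3 cells at 8 h, not called from its brightest probe, was called lower with the mean of all its probes (-0.10); no value called from the brightest probe was called the other way by an alternative. The cause of the other changes was not tested. Same-numbered 2 h and 8 h arrays did not deviate together, with correlations of -0.39 to 0.168 in FOXO3 and -0.00811 to 0.0762 in FOXO4 cells, so the numbers were not taken as pairs. Arrays of unlike number gave -0.397 to 0.449 in FOXO3 and -0.13 to 0.156 in FOXO4 cells. Within a group at 2 h, ratios of all genes, with the dye difference left in, correlated between arrays from -0.558 to 0.809 in FOXO3 cells. In FOXO4 cells they ran from -0.593 to 0.864. At 8 h the ranges were 0.283 to 0.931 and -0.205 to 0.931. With the replicate number as a block the calls were 26 in FOXO3 and 17 in FOXO4 cells at 8 h. A block for slide or scan was not run, because no header names a batch of more than 1 array. Dim probes limit what could be seen for 13 genes that were dim at time 0 on at least 12 arrays. Among them were Ulk1, Ulk2, Wipi1, Atg2a and Zfyve1, which were called higher in both lines at 8 h.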
